A study of Mus musculus with 38 samples.

Results

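DNL919, taken here to be the TREM2-activating antibody that the study calls ATV:TREM2, binds human TREM2 and carries a brain transport site. The comparison described here sets microglia taken 4 days after a single dose against microglia taken 1 day after it. It was made over the 16 libraries labelled DNL919 at 10 mg/kg on day 4 (8) or day 1 (8), out of 38 libraries in all, with the raw counts of each gene as the measure. The C57BL/6J mice were 3 months old, hemizygous for an artificial chromosome with human TREM2 under its own regulatory elements, and homozygous for a knock-in transferrin receptor with a human apical domain, which the transport site binds. All groups share both alleles. CD11b+ cells were sorted by flow cytometry from brain, and the labels give the region in different ways (cortex and hippocampus, or brain without cerebellum). Each DNL919 day had 2 libraries in each of 4 takedown batches. All groups of a batch were collected on the same date, so the days differ in when the dose was given. The females were in batches 1 and 2 and the males in 3 and 4, so that sex and these pairs of batches cannot be told apart. Mice that received ATV:DNP02 at 10 mg/kg, the isotype control on the same transport site, were taken 1 day after dosing only (8 libraries, 2 in each batch). They give the reference level below, and a control taken 4 days after dosing was not analysed here. Vehicle mice (6 libraries, day 1) entered the same model, and their values are given in a few places only. Human TREM2 is not among the genes counted, so Trem2 is the mouse gene.

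TREM2 is a receptor on the surface of microglia, the resident macrophages of the brain. It binds lipids and lipoproteins and signals through the adaptor DAP12 (Tyrobp) and the kinase SYK. Its activation is known to support survival, proliferation, uptake of debris and the lipid and energy metabolism of these cells. Microglia that leave their resting state typically lower genes such as P2ry12 and raise chemokines, interferon-stimulated genes or the genes of disease-associated microglia.

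Many genes of growth, proliferation and chemokine signalling fell between day 1 and day 4, and many genes of resting microglia rose. Of 11189 genes tested with limma-voom, 2020 were lower on day 4 (18.1%) and 1549 were higher (13.8%) at a Benjamini-Hochberg adjusted p under 0.05, and the median log2 fold change of all genes was -0.0018. Fold changes below are log2 values of day 4 against day 1 unless another pair is named, and "rose" or "fell" is used only of genes that passed this threshold. CPM is the count of a gene scaled to a common library total with TMM (trimmed mean of M values) factors. At least a 2-fold change with the same threshold was seen in 1136 genes that fell (10.2%) and 823 that rose (7.36%). The 8 libraries of each day did not overlap for 360 genes that were lower (3.22%) and 115 that were higher on day 4 (1.03%).

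**Figure D1:**
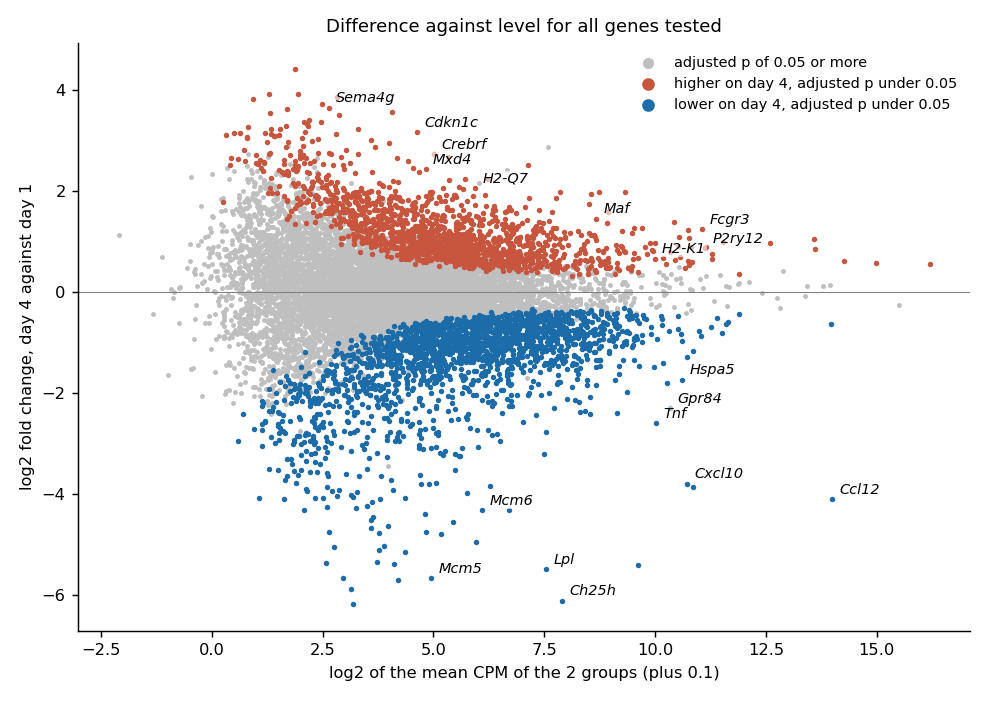
Each point is 1 of the 11189 genes tested. The x axis gives the log2 of the mean CPM of the 2 groups (8 libraries each) and the y axis the log2 fold change of day 4 against day 1. Blue genes fell and red genes rose at an adjusted p under 0.05. The lowest labelled values, between -6.12 and -3.80, belong to Ch25h, Mcm5, Lpl, Mcm6, Ccl12 and Cxcl10.

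Library measures moved with the day. Day 4 libraries held 1869705 to 3812657 counts and day 1 libraries 2911439 to 6418858 (two-sided exact permutation p = 0.00995, adjusted over 5 library measures 0.0166). Noncoding genes took 5.25% ± 1.7 of the counts on day 4 and 3.38% ± 0.975 on day 1 (SD, n = 8 each, exact permutation adjusted p = 0.0216). The share was 7.05% ± 1.42 in ATV:DNP02 (n = 8) and 7.81% ± 1.77 in Vehicle libraries (n = 6, both SD). Of 833 noncoding genes tested, 151 rose and 39 fell (median log2 fold change 0.74), where 13.8% and 18.1% of all genes rose and fell. On day 4, 2 were above ATV:DNP02 and 1 below (median 0.06), and on day 1, 44 were above and 159 below (median -0.64). Malat1, an abundant nuclear RNA, rose by 0.57 ± 0.17 (SE, adjusted p = 0.00711). With the noncoding share added to the model 2483 genes were called, among which Malat1 was missing (adjusted p = 0.523, the highest over 27 alternatives, which began at 0.00177). The 27 alternatives counted here and below kept every batch, so fits of single sexes or batches are not among them. With all libraries thinned to the smallest total 2980 were called. Counts of 100 or more were deposited with at most 2 significant digits, which shifts single values by up to 4.76%. These are bulk samples, in which fewer cells of a type and less RNA per cell cannot be told apart.

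Of the 16 libraries, 3 stood apart from their groups on the measures used here, and all 3 were male. Day 1 replicate 8 (batch 4) was the lowest or highest of its group by a wide gap for 18 of the genes described, with chemokines and interferon-stimulated genes low. Day 1 replicate 5 (batch 3) was so for 8 genes. Day 4 replicate 6 (batch 3) was so for 13 genes, its interferon-stimulated genes lay at the ATV:DNP02 level, and its summed neutrophil markers reached 7784 CPM against 141 to 293 CPM in the other 7 day 4 libraries. Without these 3 libraries, a choice made after the data were seen, 1982 genes fell and 1431 rose. Of the 3413 genes called then, 3051 were also called with all libraries (89.4% of the one list and 85.5% of the other).

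The sorted cells carried microglial markers throughout. The 9 marker genes counted summed to 8135 to 15908 CPM on day 1 and 10104 to 16386 CPM on day 4. Astrocyte markers (15 genes, 7 tested, 2 higher) summed from 144 to 400.0 CPM on day 1 and from 317 to 564 CPM on day 4. Oligodendrocyte markers (15 genes, 8 tested, 3 higher and 1 lower) summed from 337 to 726 CPM on day 1 and from 558 to 1279 CPM on day 4. Markers of border-associated macrophages (18 genes, 17 tested, 1 higher and 3 lower) summed from 479 to 1175 CPM on day 1 and from 242 to 922 CPM on day 4, and those of monocytes (16 genes, 14 tested, none called) from 73 to 332 CPM on day 1 and from 50.2 to 495 CPM on day 4. Endothelial markers summed from 578 to 907 CPM on day 1 and from 389.5 to 900.4 CPM on day 4, neuronal markers from 21.7 to 49.3 CPM on day 1 and from 20.5 to 100.2 CPM on day 4, and T and NK cell markers from 1.33 to 115 CPM on day 1 and from 5.34 to 178 CPM on day 4. Neuronal (8 of 15 tested), endothelial (7 of 16), mural (3 of 12), oligodendrocyte precursor (2 of 10), B cell (6 of 13), T and NK cell (1 of 17) and red cell or platelet lists (2 of 12) had no member called, and 1 of 6 tested neutrophil markers (15 listed) was higher. When the 3 libraries were left out, 1 astrocyte marker was called higher and 1 monocyte marker lower. No count in any of the 16 libraries was seen for 7 red cell or platelet, 3 endothelial, 2 mural, 2 oligodendrocyte precursor and 1 neutrophil markers. The sums overlapped between the days for all 13 marker lists, and their part in the results below was not tested.

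Genes of DNA replication had the lowest median fold change of the 36 gene lists examined. Of 67 listed genes, 62 passed the filter on low counts and 57 of these fell, none rose, and the median log2 fold change was -2.92. All 62 values were negative, and 35 of the 62 had day 4 libraries that all lay below all day 1 libraries, where 3.22% of all genes did. The summed level of the list was 2135 to 4374 CPM on day 1 and 635 to 1044 CPM on day 4, against 581 to 853 CPM in the ATV:DNP02 libraries. On day 4, 2 members, Tk1 and Hells, were called above ATV:DNP02, where 1.58% of all genes were, and the list median for that pair was 0.35. On day 1 it was 3.79 with 57 members higher, against 20.8% of all genes. Both pairs share libraries with the day 4 against day 1 comparison.

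Mcm6 and Mcm5 encode subunits of the helicase that opens DNA at replication origins. Mcm6 (ENSMUSG00000026355, chr1:128331590-128359664) measured 87.8 to 175 CPM (median 121) on day 1 and 0 to 22.9 CPM (median 10.6) on day 4. The days did not overlap, and 2 day 4 libraries had no count of it. The fold change was -4.33 ± 0.42 (SE, adjusted p = 1.27e-10), and the ATV:DNP02 median was 6.3 CPM. Mcm5 measured 27.9 to 92.6 CPM (median 59.7) on day 1 and 0 to 9.83 CPM (median 0.86) on day 4, also without overlap, with a fold change of -5.67 ± 0.66 (SE, adjusted p = 6.73e-09). Cdc6, which loads the helicase, had 2.54 to 29.9 CPM (median 14.5) on day 1 and a count in only 1 of 8 day 4 libraries. Uhrf1, which carries DNA methylation through replication, likewise had 9 to 29.9 CPM (median 16.4) on day 1 and a count in 1 of 8 libraries on day 4. Dtl, an adaptor that degrades licensing factors in S phase, fell by 5.11 on the log2 scale (adjusted p = 3.07e-07). Pcna, the sliding clamp of the DNA polymerases, measured 97.4 to 366 CPM (median 249.5) on day 1 and 40.9 to 131 CPM (median 70.9) on day 4, which overlapped, with a fold change of -1.82 ± 0.22 (SE, adjusted p = 9.92e-09). Rrm2, a subunit of ribonucleotide reductase, measured 20.7 to 39.6 CPM (median 26.3) on day 1 and 0 to 16 CPM (median 2.51) on day 4 without overlap, a fold change of -3.73 ± 0.65 (SE, adjusted p = 1.49e-05), though DESeq2 gave an adjusted p of 0.0821, the highest of 27 alternatives (the lowest was 3.47e-06).

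E2F factors bind promoters of many replication genes, and 2 such promoters are shown because both genes had libraries without a count on day 4. The sequences are from RefSeq (build GRCm38.p6), 5′ to 3′ on the strand of the gene and upstream of its start. Capitals mark matches to TTTNGCGC on either strand, where overlapping matches run together. Mcm6 lies at chr1:128359720-128359840, minus strand, and Mcm5 at chr8:75109331-75109392, plus strand.
Mcm6: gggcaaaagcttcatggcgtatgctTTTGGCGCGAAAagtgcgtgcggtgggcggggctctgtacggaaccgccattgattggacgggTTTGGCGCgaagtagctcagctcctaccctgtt
Mcm5: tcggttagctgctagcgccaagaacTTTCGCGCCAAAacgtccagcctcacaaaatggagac
The Mcm6 stretch holds 3 matches and the Mcm5 stretch 2. Of the 50 tested list members with a promoter sequence (250 bases before to 50 after the start), 10 held the motif (20%). It was in 1.82% of all 15521 promoters matched to genes of the table and in 2.74% of the 7838 promoters of genes tested. All 10 list members with the motif fell, as did 35 of the 40 without it. A match is a description of letters, not evidence of binding.

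Genes of mitosis fell in part. Of 86 listed genes 66 were tested, 29 fell, 1 rose and 36 were not called, with a median of -1.47. The list summed to 1545 to 3226 CPM on day 1 and 708 to 1671 CPM on day 4, and the days overlapped. On day 4, 12 members were called above ATV:DNP02, with a list median of 2.02. Of the 12, 3 had fallen from day 1 (Stmn1, Top2a and Pbk, a list drawn up after their values were seen). Whether the replication and mitosis lists differed was not tested.

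Top2a, the topoisomerase that untangles sister chromatids, measured 22.9 to 86.6 CPM (median 29.8) on day 1 and 0 to 25.9 CPM (median 18.5) on day 4. The days overlapped, 1 day 4 library had no count, and the fold change of -1.45 ± 0.51 (SE, adjusted p = 0.0239) missed the threshold with edgeR, with DESeq2, without the low-count filter, and without day 1 replicate 1 or day 4 replicate 5 (its adjusted p over 27 alternatives ran from 0.00244 to 0.0851). Birc5, which encodes the chromosomal passenger survivin, measured 21.5 to 66.6 CPM (median 34.2) on day 1 and 1.94 to 44.1 CPM (median 12.8) on day 4, with a fold change of -1.35 ± 0.60 (SE, adjusted p = 0.0795). Without the 3 libraries that stood apart it was called, at -1.67 (adjusted p = 0.0466), and its adjusted p ran from 0.00791 to 0.475 over the 27 alternatives. No ATV:DNP02 library had a count of Birc5, so day 4 was at least 106-fold higher than a floor of 3 counts over that group. Mki67, the proliferation antigen Ki-67, measured 1.45 to 14.2 CPM (median 5.81) on day 1 and 0 to 11.9 CPM (median 5.38) on day 4, which overlapped almost fully (fold change -0.96 ± 0.72 (SE, adjusted p = 0.333)), and it too had no count in ATV:DNP02, at least 31-fold below day 4. Cdk1, the kinase that drives entry into mitosis, fell by 2.37 on the log2 scale (adjusted p = 6.19e-05). Cenpa, the histone H3 variant of centromeres, was the member that rose, from 0 to 14.5 CPM (median 3.03) to 2.91 to 30.3 CPM (median 22.5), with a fold change of 2.37 ± 0.74 (SE, adjusted p = 0.0116). That call was lost without the 3 libraries that stood apart (adjusted p = 0.0578), with DESeq2 and after thinning, and over 27 alternatives its adjusted p ran from 8.83e-05 to 0.0627. At the entry to the cycle Ccnd1 (cyclin D1) measured 106 to 194 CPM (median 163) on day 1 and 16 to 72.8 CPM (median 46.2) on day 4 without overlap, -1.81 ± 0.22 (SE, adjusted p = 2.08e-08), with an ATV:DNP02 median of 82.9 CPM. The inhibitors Cdkn1c (p57) and Cdkn1b (p27) rose by 3.16 and 1.84 (adjusted p = 1.66e-07 and 0.000399). Cdkn1c measured 2.31 to 8.44 CPM (median 4.81) on day 1 and 34 to 59.8 CPM (median 42.4) on day 4 without overlap. Of 25 genes of G1/S control 12 fell and 2 rose.

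The cell cycle genes homology region (CHR, TTTGAA) is a known element of promoters used in G2 and mitosis. It is shown for Mki67, which was not called between the days, and for Top2a, which was called above ATV:DNP02 on day 4. Capitals mark TTTGAA on either strand. Mki67 lies at chr7:135716447-135716520, minus strand, and Top2a at chr11:99024190-99024237, minus strand (RefSeq, GRCm38.p6).
Mki67: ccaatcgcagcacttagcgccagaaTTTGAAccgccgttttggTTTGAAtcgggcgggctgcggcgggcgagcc
Top2a: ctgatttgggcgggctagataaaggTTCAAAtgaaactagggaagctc
The motif was in 64.8% of the 54 mitosis promoters, in 15.3% of all promoters and in 11.5% of those of genes tested. Of the 35 members with it, 12 fell (median -1.29), and of the 19 without it 11 (median -2.03). This difference was not tested.

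**Figure D2:**
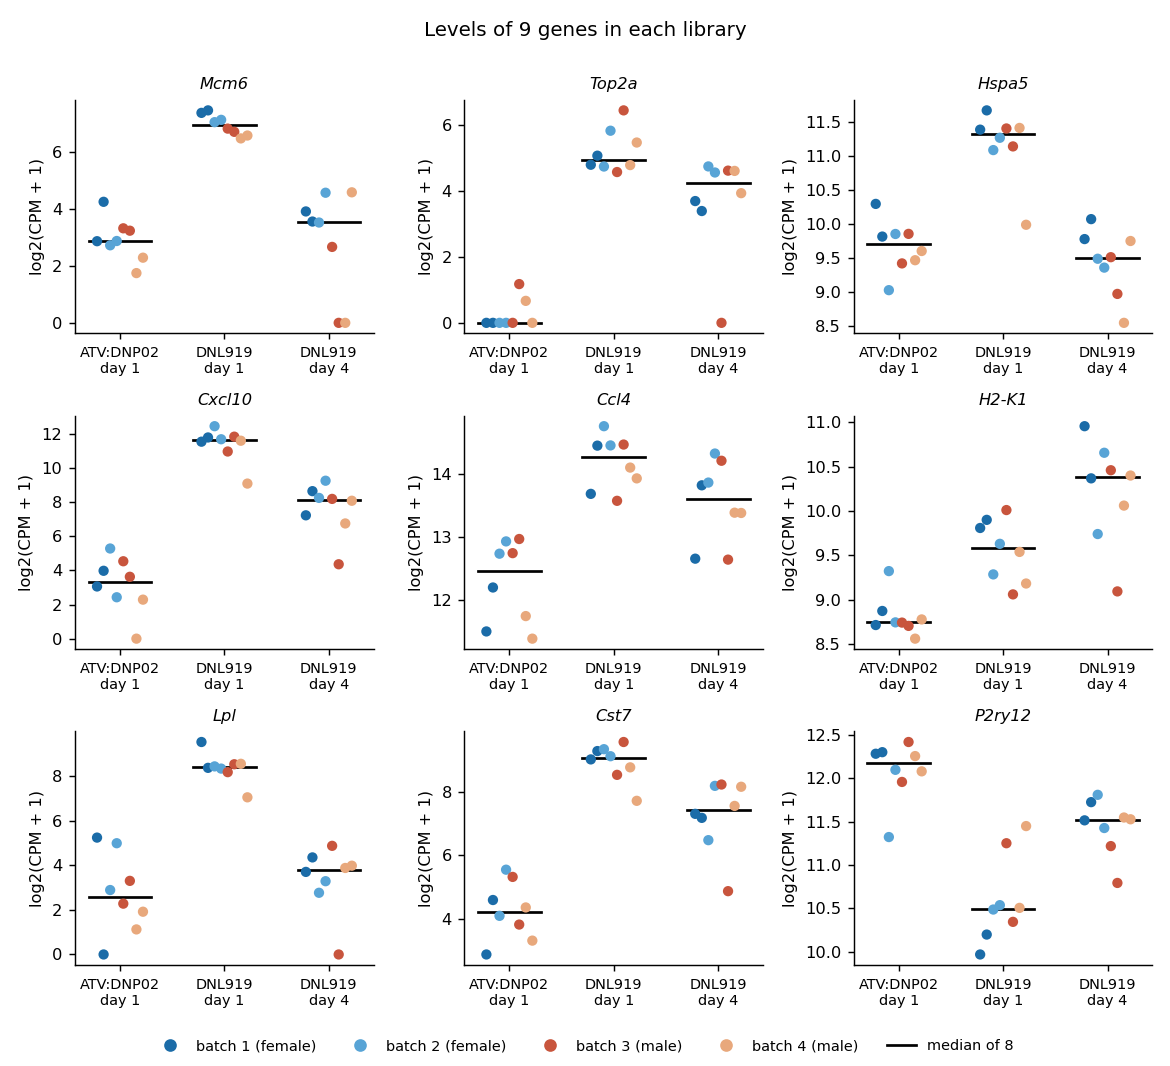
Levels of 9 genes in single libraries on a log2(CPM + 1) scale, for ATV:DNP02 day 1, DNL919 day 1 and DNL919 day 4 (8 libraries each). Points are libraries coloured by takedown batch and bars are medians of 8. The day 4 medians of Mcm6, Hspa5 and Lpl lie within the range of the controls and those of Cxcl10, Ccl4, Cst7 and P2ry12 between the other groups. Top2a lies above all controls in 7 of 8 day 4 libraries, and the median of H2-K1 is highest on day 4.

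Most chemokines fell, to different levels. Of 22 listed, 17 were tested, 11 fell and 1 rose (Ccl9), with a median of -1.63. On day 4, 7 were still above ATV:DNP02 (median 1.20), against 12 on day 1 (median 3.28). Ccl12, which attracts monocytes through CCR2, measured 4714 to 52964 CPM (median 33261) on day 1 and 264 to 3351 CPM (median 2113) on day 4. The days did not overlap, the fold change was -4.10 ± 0.36 (SE, adjusted p = 1.08e-11), and day 4 was above ATV:DNP02 by 2.00 ± 0.41 (SE, adjusted p = 0.00316). Against Vehicle the day 4 difference of Ccl12 was 1.38 ± 0.44 (SE, adjusted p = 0.125), which was not called. Cxcl10 (ENSMUSG00000034855, chr5:92346638-92348889), a ligand of CXCR3 that interferons induce, measured 544 to 5608 CPM (median 3203) on day 1 and 19.5 to 611 CPM (median 281) on day 4. The ranges overlapped only through day 1 replicate 8, at 544 CPM, and one day 4 library at 611 CPM. Its fold change was -3.80 ± 0.35 (SE, adjusted p = 2.15e-11), and it remained 4.52 above ATV:DNP02 (log2, adjusted p = 0.000292). Ccl2, another CCR2 ligand, measured 508 to 5608 CPM (median 3837) on day 1 and 38 to 799.5 CPM (median 227) on day 4 with a fold change of -3.87 ± 0.40 (SE, adjusted p = 3.82e-10). Its difference from ATV:DNP02 on day 4 was 0.47 ± 0.44 (SE, adjusted p = 0.75). Ccl7 fell by 5.41 on the log2 scale (adjusted p = 2.68e-07). Ccl3 and Ccl4, which attract monocytes and T cells, changed least among the chemokines that fell. Ccl4 measured 12173 to 27728 CPM (median 19969.7) on day 1 and 6363 to 20509 CPM (median 12561) on day 4, overlapping widely, with fold changes of -0.63 ± 0.18 (SE, adjusted p = 0.00565) for Ccl4 and -0.63 ± 0.18 (SE, adjusted p = 0.00454) for Ccl3. Both were still above ATV:DNP02 by 1.25 and 1.20 (adjusted p = 3.61e-05 and 4.73e-05), and above Vehicle by 1.17 and 1.06 (adjusted p = 0.000805 and 0.00247). When genes of low counts were kept in the fit, Ccl12, Cxcl10, Ccl2, Ccl7 and Ccl4 lost their calls (adjusted p from 0.0833 for Ccl12 to 0.94 for Ccl4). Each was called in the other 26 of the 27 alternatives that kept every batch. Within batch 4 alone (2 against 2 libraries) none of them was called (adjusted p from 0.265 to 0.368). Ccl4 was not called within batch 1 or batch 3 either (adjusted p = 0.0635 and 0.772).

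Among cytokines, 6 of 25 tested fell and 4 rose (32 listed, median -0.39), where 18.1% and 13.8% of all genes fell and rose, and without the 3 libraries that stood apart 7 fell and 2 rose. Tnf, the founding member of the tumour necrosis factor family, measured 1260.3 to 2060.4 CPM (median 1925) on day 1 and 100.0 to 492 CPM (median 322) on day 4, without overlap. It fell by 2.61 ± 0.21 (SE, adjusted p = 7.24e-13) and was 0.93 above ATV:DNP02 (log2, adjusted p = 0.0188). Il1rn, which blocks the interleukin 1 receptor, fell by 4.96 ± 0.97 (SE, adjusted p = 7.65e-05), and Tnfsf9, the ligand of 4-1BB, by 3.22 ± 0.35 (SE, adjusted p = 1.73e-09). Il1b, which encodes interleukin 1 beta, measured 338 to 819 CPM (median 593) on day 1 and 438 to 1457 CPM (median 612) on day 4. The days overlapped (fold change 0.49 ± 0.27 (SE, adjusted p = 0.168), called in 1 alternative, the 16 libraries alone, with adjusted p from 0.0392 to 0.713 over the 27 alternatives), and day 4 was above ATV:DNP02 by 1.98 ± 0.29 (SE, adjusted p = 2.98e-05). Csf1, a growth factor of microglia chosen after its values were seen, did the same, with 35.9 to 84.5 CPM (median 46.5) on day 1 and 28.3 to 92.3 CPM (median 62.3) on day 4, a fold change of 0.19 ± 0.22 (SE, adjusted p = 0.555), and 1.68 ± 0.28 (SE, adjusted p = 0.000192) against ATV:DNP02. Of 34 NF-kB regulators and targets, 15 fell and 3 rose (median -0.30, the same with genes at 0 set to their floor, and -0.48 without the 3 libraries). Tnip3, which limits NF-kB signalling, measured 7.98 to 38.2 CPM (median 15.8) on day 1 and had no count in any day 4 library, at least 123-fold lower against a floor of 3 counts over the group. Cd40, a costimulatory receptor, measured 7.98 to 84.1 CPM (median 47.3) on day 1 and 0 to 9.22 CPM (median 3.98) on day 4 and fell by 3.80 ± 0.53 (SE, adjusted p = 2.89e-07). Rel, a subunit of NF-kB, rose by 1.30 ± 0.23 (SE, adjusted p = 1.97e-05).

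Interferon-stimulated genes had mostly negative fold changes, and only part of them were called. Of 78 listed, 71 were tested, 34 fell, 1 rose and 36 were not called (median -0.89, or -0.58 with the noncoding share in the model). Of the 71 values 64 were negative and 7 positive. Summed over the list, the level was 3449 to 12345 CPM on day 1, 1676 to 6766 CPM on day 4 and 1377 to 2773 CPM in ATV:DNP02. The lowest day 1 value was that of replicate 8 and the lowest day 4 value that of replicate 6, and without the 3 libraries that stood apart 41 members fell (median -0.85). On day 4, 29 members were above ATV:DNP02 (median 1.40), and 15 of these had fallen from day 1. Without the 3 libraries 39 were above and 1 below.

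Ifit3, which binds viral RNA complexes, measured 109 to 791 CPM (median 493) on day 1 and 0 to 369 CPM (median 127) on day 4. The day 4 value of 0 was replicate 6, the days overlapped, and the fold change of -2.39 ± 0.50 (SE, adjusted p = 0.000186) missed the threshold with the noncoding share in the model (adjusted p = 0.0684, the highest of 27 alternatives, which began at 1.74e-06). Isg15, a ubiquitin-like modifier, measured 36.3 to 132 CPM (median 93.7) on day 1 and 0.455 to 43.2 CPM (median 20.5) on day 4 with a fold change of -2.43 ± 0.44 (SE, adjusted p = 2.54e-05). Rsad2, the antiviral enzyme viperin, measured 7.25 to 150.1 CPM (median 75.6) on day 1 and 0 to 23.8 CPM (median 13.1) on day 4, a fold change of -3.21 ± 0.66 (SE, adjusted p = 0.000152). Bst2, which tethers virions to membranes, measured 149 to 429 CPM (median 338) on day 1 and 45.5 to 238 CPM (median 147) on day 4 and fell by 1.28 ± 0.20 (SE, adjusted p = 3.14e-06), yet was 1.23 above ATV:DNP02 (adjusted p = 0.00145). Irf7, which amplifies type I interferon, fell by 2.13 ± 0.47 (SE, adjusted p = 0.000382) but was not called with DESeq2 or with the noncoding share in the model. The fold change of Irf7 without the 3 libraries was -1.36 (adjusted p = 9.8e-05), and its adjusted p ran from 9.8e-05 to 0.157 over the 27 alternatives. Among genes chosen after their values were seen, Lgals3bp, a secreted galectin ligand, measured 163 to 900.5 CPM (median 641) on day 1 and 136 to 1198 CPM (median 759.9) on day 4 with a fold change of -3.1e-05 ± 0.25 (SE, adjusted p = 1), and was 2.49 above ATV:DNP02 (adjusted p = 2.67e-07). Ifi27l2a, a small interferon-induced membrane protein, measured 58 to 600.3 CPM (median 329) on day 1 and 36.4 to 916 CPM (median 688) on day 4, a fold change of 0.60 ± 0.43 (SE, adjusted p = 0.301) that was called without day 4 replicate 6 (adjusted p from 0.0443 to 0.575 over the 27 alternatives), and 2.77 above ATV:DNP02 (adjusted p = 0.000866). Uba7, which activates ISG15 for conjugation, was the member that rose (1.14 ± 0.21 (SE, adjusted p = 2.92e-05)). Of 23 interferon receptors, STATs and IRFs 7 rose and 3 fell.

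The interferon-stimulated response element is bound by complexes with interferon regulatory factors, and its core (GAAA, any 2 bases, GAAA) is shown upstream of Cxcl10, Ifit3 and Isg15, members that fell. Capitals mark the core on either strand, where overlapping matches run together. Cxcl10 lies at chr5:92349068-92349127, minus strand, Ifit3 at chr19:34583348-34583441, plus strand, and Isg15 at chr4:156200850-156200921, minus strand (RefSeq, GRCm38.p6).
Cxcl10: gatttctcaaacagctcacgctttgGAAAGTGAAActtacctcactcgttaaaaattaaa
Ifit3: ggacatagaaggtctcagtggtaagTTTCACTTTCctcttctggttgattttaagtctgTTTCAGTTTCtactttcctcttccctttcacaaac
Isg15: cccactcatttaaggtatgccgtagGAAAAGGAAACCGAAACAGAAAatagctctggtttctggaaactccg
Of 57 tested interferon-stimulated genes with a promoter sequence, 26 held the core (45.6%), against 3.43% of all promoters and 3.19% of those of genes tested. Of those 26, 18 fell with a median of -1.19, and of the 31 without it 9 fell with a median of -0.55, a difference that was not tested.

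Among genes of MHC class I presentation more rose than fell, where 13.8% of all genes rose and 18.1% fell. Of 19 tested, 5 rose (B2m, H2-K1, H2-D1, H2-Q7 and H2-M3, all chains of class I molecules), and 3 fell (Calr, Pdia3 and Erap1, which fold class I molecules or trim their peptides in the ER). The list median was -0.05, or 0.33 with the noncoding share in the model and 0.09 without the 3 libraries that stood apart, and within batches it ran from -0.38 to 0.55. All 5 that rose were also above ATV:DNP02 on day 4, among 9 members of the list that were. H2-K1, a classical class I heavy chain, measured 533 to 1031 CPM (median 767) on day 1 and 545 to 1988 CPM (median 1336) on day 4. The days overlapped through day 4 replicate 6 and others, the fold change was 0.66 ± 0.17 (SE, adjusted p = 0.00191), and the difference from ATV:DNP02 was 1.42 ± 0.17 (SE, adjusted p = 4.36e-07). H2-Q7, a nonclassical chain, measured 5.08 to 46.4 CPM (median 14.4) on day 1 and 14.1 to 175 CPM (median 121) on day 4, rose by 2.05 ± 0.39 (SE, adjusted p = 5.9e-05), and was 4.31 above ATV:DNP02 (adjusted p = 0.000237). H2-M3, which presents formylated peptides, rose by 0.92 ± 0.22 (SE, adjusted p = 0.00118), though within batch 3 alone its fold change was -0.01. These genes are near-identical in part, and how reads that match several of them were counted is not given in the sources used here. The immunoproteasome, which cuts peptides for class I, went the other way, and 5 of 6 members fell (median -0.82). Psme2, a subunit of its activator, measured 192 to 654 CPM (median 469.5) on day 1 and 44.5 to 172 CPM (median 101) on day 4 without overlap and fell by 2.15 ± 0.19 (SE, adjusted p = 1.48e-11). Psmb8, a catalytic subunit, measured 290.1 to 546 CPM (median 434) on day 1 and 127 to 338 CPM (median 299.6) on day 4 and fell by 0.70 ± 0.17 (SE, adjusted p = 0.00126), a call lost with the noncoding share in the model (adjusted p = 0.212, the highest of 27, which began at 5.04e-05). Of 13 genes of MHC class II presentation 3 rose and 1 fell, and Cd74, the invariant chain, had a fold change of -0.64 ± 0.50 (SE, adjusted p = 0.36).

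**Figure D3:**
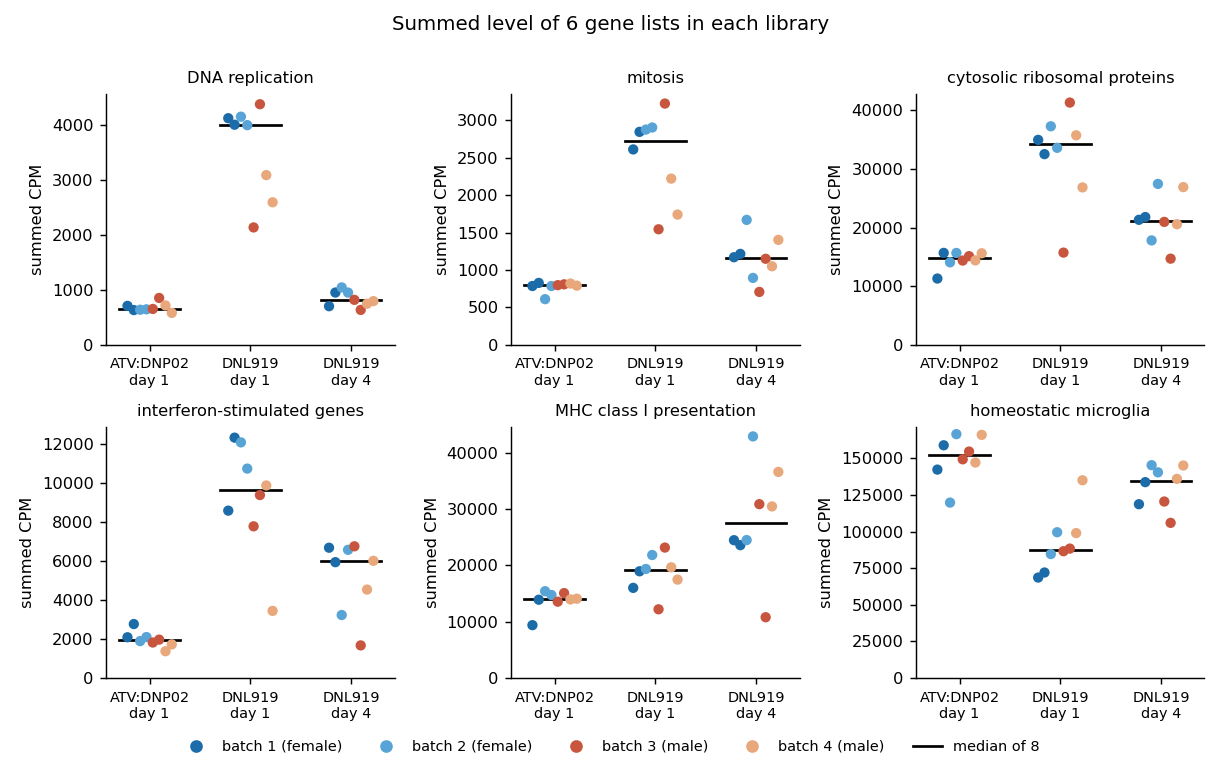
Summed CPM of 6 gene lists in single libraries of ATV:DNP02 day 1, DNL919 day 1 and DNL919 day 4 (8 each), coloured by takedown batch, with the median of 8 as a bar and axes that start at 0. DNA replication on day 4 lies below all day 1 libraries, the day 4 medians of mitosis, ribosomal proteins, interferon-stimulated genes and homeostatic genes lie between those of the other groups, and that of MHC class I presentation is highest. Day 4 replicate 6 (batch 3) is lowest of its group for interferon-stimulated genes, MHC class I and homeostatic genes.

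The machinery of protein synthesis fell broadly. Of cytosolic ribosomal proteins (82 listed), 60 of 80 tested fell and 1 rose (median -0.82), of ribosome biogenesis factors (88 listed) 56 of 87 tested fell and 0 rose (median -1.03), of translation initiation factors 19 of 37 tested fell and 2 rose (median -0.63), and of aminoacyl-tRNA synthetases (40 listed) 16 of 22 tested fell and 2 rose (median -0.87). Only 1 initiation factor and 1 synthetase rose without the 3 libraries that stood apart. Ribosomal proteins summed to 15743 to 41348 CPM on day 1 and 14713 to 27469.7 CPM on day 4, where the lowest day 1 library was replicate 5 and the lowest day 4 library replicate 6. On day 4 21 ribosomal proteins were still above ATV:DNP02 (median 0.54, or 48 without the 3 libraries that stood apart), but only 1 biogenesis factor was (median 0.07). Rplp0, a protein of the ribosomal stalk, measured 516 to 1166 CPM (median 1059.9) on day 1 and 309 to 573 CPM (median 480.4) on day 4 and fell by 1.05 ± 0.14 (SE, adjusted p = 9.86e-08). Rps6, a small-subunit protein that mTOR signalling phosphorylates, measured 28.3 to 164 CPM (median 95.6) on day 1 and 9.09 to 61.4 CPM (median 17.7) on day 4 and fell by 2.05 ± 0.29 (SE, adjusted p = 3.09e-07). Rps27 was the ribosomal protein gene that rose (1.17 ± 0.17 (SE, adjusted p = 8.9e-07)). Ribosomal protein genes have many processed copies, so their single values are uncertain. Npm1, a nucleolar chaperone of ribosome assembly, fell by 1.27 ± 0.17 (SE, adjusted p = 6.49e-08). Eif5a, needed for elongation past difficult stretches, measured 323 to 717 CPM (median 654) on day 1 and 63.6 to 199.8 CPM (median 143) on day 4 without overlap and fell by 2.08 ± 0.19 (SE, adjusted p = 2.58e-11). Eif2s1, the alpha subunit of the initiation factor eIF2, fell by 1.59 ± 0.18 (SE, adjusted p = 3.49e-09), also without overlap.

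Serine, one-carbon and ATF4 target genes fell in part, with 15 of 29 tested lower and 2 higher (40 listed, median -0.93), or 1 higher without the 3 libraries. Mthfd2, the mitochondrial one-carbon enzyme, measured 33.7 to 149 CPM (median 80.2) on day 1 and 5.67 to 33.6 CPM (median 23.9) on day 4 without overlap, -1.90 ± 0.27 (SE, adjusted p = 2.84e-07), and Shmt2, which makes glycine and one-carbon units, fell by 2.71 ± 0.38 (SE, adjusted p = 2.26e-07). Aars, the alanyl-tRNA synthetase, was among the 2 synthetases that rose, with 20.0 to 116 CPM (median 54.5) on day 1 and 68 to 124 CPM (median 109) on day 4 and 0.88 ± 0.22 (SE, adjusted p = 0.00131).

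Genes for folding and degrading proteins fell to list medians near those of ATV:DNP02. Of ER chaperones and folding enzymes (46 listed), 32 of 42 tested fell and 0 rose (median -0.94), of cytosolic and mitochondrial chaperones 32 of 34 tested fell and 2 rose (median -1.23), and of constitutive proteasome subunits 34 of 39 tested fell and 0 rose (median -0.91). Of the cytosolic and mitochondrial chaperones 1 rose without the 3 libraries. The medians against ATV:DNP02 on day 4 were 0.01, -0.03 and -0.01, with 1 member of the 3 lists called, and on day 1 they had been 0.98, 1.08 and 1.01. Hspa5 (BiP), the main Hsp70 of the ER, measured 1015 to 3274 CPM (median 2581) on day 1 and 372 to 1076 CPM (median 723) on day 4. The only overlap came from day 1 replicate 8, at 1015 CPM, and the fold change was -1.74 ± 0.18 (SE, adjusted p = 3.68e-10). Sdf2l1, a partner of BiP, measured 268 to 819 CPM (median 583) on day 1 and 44.1 to 206 CPM (median 110.0) on day 4 without overlap, -2.36 ± 0.22 (SE, adjusted p = 5.33e-11). Creld2, an ER stress-induced protein, measured 83.4 to 382 CPM (median 234) on day 1 and 35.5 to 78.9 CPM (median 52.7) on day 4, also without overlap, -2.01 ± 0.24 (SE, adjusted p = 1.63e-08). Hspa8, the constitutive cytosolic Hsp70, fell by 1.42 ± 0.17 (SE, adjusted p = 9.08e-09), and Tcp1, a subunit of the chaperonin that folds actin and tubulin, fell by 1.76 ± 0.21 (SE, adjusted p = 1.01e-08). Psmd14, the deubiquitinase of the proteasome lid, measured 112 to 259 CPM (median 200.2) on day 1 and 43.2 to 89.1 CPM (median 60.6) on day 4 without overlap and fell by 1.59 ± 0.17 (SE, adjusted p = 7.33e-10).

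The ER stress response element (CCAAT and CCACG with 9 bases between them, searched on both strands) is bound by ATF6 with NF-Y, and the upstream stretch of Creld2 that holds it is shown in capitals as the example with the clearest fall (chr15:88819495-88819563, plus strand, RefSeq, GRCm38.p6).
Creld2: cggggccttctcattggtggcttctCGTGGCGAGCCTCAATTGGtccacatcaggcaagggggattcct
Of 31 tested members of the ER list with a promoter sequence, 8 held the element (25.8%), against 0.168% of all promoters and 0.140% of those of genes tested. Of the 8 members with it 6 fell, as did 20 of the 23 without it.

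Most nuclear genes of the mitochondria fell, and of those encoded in the organelle 1 was called. For the mitochondrial ribosome and import (105 listed) 73 of 101 tested fell and 0 rose (median -0.85), for nuclear subunits of respiratory complex I 32 of 41 tested fell and 0 rose (median -0.60), and for complexes II to V 37 of 42 tested fell and 1 rose (median -0.85). Of 7 mitochondrially encoded genes tested (13 listed) 1 fell, mt-Nd1, by 0.77 ± 0.12 (SE, adjusted p = 1.74e-06). The 13 listed genes summed to 4853 to 10036 CPM on day 1 and 6058 to 10309 CPM on day 4, which overlapped. All genes of that chromosome, listed or not, together took 2.69% ± 0.725 of the counts on day 4 and 1.71% ± 0.432 on day 1 (SD, n = 8 each, exact permutation adjusted p = 0.0144). This higher share was thus not seen in the sum of the listed genes. Atp5b, the catalytic subunit of ATP synthase, measured 145 to 612 CPM (median 386) on day 1 and 77.3 to 228 CPM (median 112) on day 4 with a fold change of -1.54 ± 0.21 (SE, adjusted p = 1.56e-07) and an ATV:DNP02 median of 90.4 CPM. Ndufb6, an accessory subunit of complex I, measured 139 to 374 CPM (median 275) on day 1 and 59.8 to 124 CPM (median 95.6) on day 4 without overlap and fell by 1.45 ± 0.18 (SE, adjusted p = 4.28e-08). Ndufa4, a subunit of the respiratory chain, fell by 1.17 ± 0.16 (SE, adjusted p = 2e-07).

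Glycolysis was mixed, with 9 of 25 tested genes lower and 5 higher (28 listed, median -0.51, or -0.27 with the noncoding share in the model). Gapdh measured 54.4 to 224 CPM (median 111) on day 1 and 13.6 to 52.6 CPM (median 22.3) on day 4 without overlap and fell by 2.18 ± 0.23 (SE, adjusted p = 1.02e-09), Pkm, which makes pyruvate, by 1.88 ± 0.25 (SE, adjusted p = 1.19e-07), and Ldha, the lactate dehydrogenase subunit that favours lactate, by 1.34 ± 0.17 (SE, adjusted p = 4.38e-08). Ldha stayed 0.73 above ATV:DNP02 (adjusted p = 0.0237). Ldhb, the other subunit, rose, measuring 463 to 1088 CPM (median 582) on day 1 and 727 to 1537 CPM (median 1269) on day 4 with a fold change of 0.97 ± 0.16 (SE, adjusted p = 8.41e-06). For the TCA cycle 10 of 24 tested fell and 0 rose (median -0.42), or -0.20 as the median with the noncoding share in the model, and for cholesterol synthesis 6 of 20 tested fell and 0 rose (median -0.90). For fatty acid oxidation 5 of 31 tested fell and 4 rose (median -0.14), close to the 18.1% and 13.8% of all genes, and without the 3 libraries that stood apart 3 fell and 4 rose (median 0.03). All 20 cholesterol genes had negative values, though only 6 passed the test.

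Genes of disease-associated microglia (43 listed) did not move as a block. Of 35 tested, 14 fell and 4 rose, where 18.1% and 13.8% of all genes fell and rose. The list median was -0.42, or -0.08 with the noncoding share in the model. On day 4, 14 members were above ATV:DNP02, where 1.58% of all genes were, and 9 of these had fallen. Lpl, the lipoprotein lipase, measured 131 to 732 CPM (median 335) on day 1 and 0 to 28.2 CPM (median 12.8) on day 4. The days did not overlap, the fold change was -5.50 ± 0.61 (SE, adjusted p = 2.84e-09), and the ATV:DNP02 median was 5.12 CPM. Ch25h, which makes the oxysterol 25-hydroxycholesterol, measured 15.2 to 682 CPM (median 534) on day 1 and 0 to 40.0 CPM (median 5.06) on day 4, overlapping only through day 1 replicate 8, and fell by 6.12 ± 0.68 (SE, adjusted p = 2.07e-09). Gpr84, which senses medium-chain fatty acids, measured 834 to 2565 CPM (median 2294) on day 1 and 127 to 707 CPM (median 466) on day 4 without overlap, -2.31 ± 0.21 (SE, adjusted p = 1.28e-11). Cst7, an inhibitor of cathepsins, measured 210.3 to 766 CPM (median 542) on day 1 and 28.2 to 301 CPM (median 173) on day 4, a fold change of -1.75 ± 0.31 (SE, adjusted p = 2.38e-05), and was 3.15 above ATV:DNP02 (adjusted p = 3.61e-05). Itgax (CD11c) measured 6.89 to 25.3 CPM (median 14.1) on day 1 and 6.62 to 34.5 CPM (median 12.9) on day 4, a fold change of -0.02 ± 0.39 (SE, adjusted p = 0.982), and was 3.55 above ATV:DNP02 (adjusted p = 0.00145). Tspo, a mitochondrial protein used as a ligand target in brain imaging, measured 127 to 437 CPM (median 323) on day 1 and 68.2 to 222 CPM (median 146) on day 4 and fell by 1.16 ± 0.20 (SE, adjusted p = 9.64e-06), and was 0.91 above ATV:DNP02 (adjusted p = 0.0149). Apoe, the main apolipoprotein of the brain, rose from 363 to 3867 CPM (median 895) to 923 to 3688 CPM (median 2136), 1.22 ± 0.30 (SE, adjusted p = 0.00159), but within batch 3 alone its fold change was -0.80. Axl and Spp1 were not called, with -1.0 ± 0.49 (SE, adjusted p = 0.116) and -2.14 ± 0.96 (SE, adjusted p = 0.0834). Without the 3 libraries that stood apart Axl was at -0.16 (adjusted p = 0.751), while without day 4 replicate 1 alone it was called (adjusted p from 0.0431 to 0.915 over the 27 alternatives). Spp1 was called without the 3 libraries, at -2.89 (adjusted p = 0.0381), and also without day 1 replicate 5 alone (adjusted p from 0.0381 to 0.335 over the 27 alternatives).

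Lysosomal genes rose more often than they fell. Beside the counts in this paragraph stand the shares of all genes tested, of which 13.8% rose and 18.1% fell. Of 68 tested (72 listed) 20 rose and 10 fell, with a median of 0.22 (0.53 with the noncoding share in the model), and without the 3 libraries that stood apart 27 rose and 8 fell (median 0.41). Ctsl, a cathepsin, measured 725 to 1088 CPM (median 872) on day 1 and 682 to 1812 CPM (median 1501) on day 4, rose by 0.66 ± 0.15 (SE, adjusted p = 0.000441), and was 0.63 above ATV:DNP02 (adjusted p = 0.0128). Among phagocytic, Fc and complement receptors (39 listed) 10 of 32 tested rose and 7 fell. Fcgr3, a low-affinity receptor for IgG, measured 792 to 1596 CPM (median 1248) on day 1 and 1273 to 3839.9 CPM (median 3399.7) on day 4 and rose by 1.24 ± 0.17 (SE, adjusted p = 2.04e-07), and Msr1, a scavenger receptor, measured 10.2 to 66.6 CPM (median 51.8) on day 1 and 0 to 12.7 CPM (median 4.27) on day 4 and fell by 3.63 ± 0.61 (SE, adjusted p = 8.65e-06). In lipid uptake, storage and efflux 7 of 26 rose and 5 fell. In iron handling 3 of 12 rose and 4 fell. Tfrc, the transferrin receptor, which is partly humanised in these mice, measured 7.98 to 43.6 CPM (median 25.8) on day 1 and 0 to 13.2 CPM (median 3.62) on day 4 and fell by 2.77 ± 0.45 (SE, adjusted p = 5.05e-06), and Slc40a1, the iron exporter ferroportin, rose by 1.06 ± 0.23 (SE, adjusted p = 0.000397). Of 32 cytoskeleton and migration genes 15 fell and none rose (median -0.59), and without the 3 libraries 16 fell (median -0.93).

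Most genes of homeostatic microglia rose. Of 49 tested (50 listed), 29 rose and none fell, with a median of 0.62, where 13.8% of all genes rose. The list summed to 68598 to 135021 CPM on day 1, 105945 to 145305 CPM on day 4 and 119769 to 166502 CPM in ATV:DNP02. Without the 3 libraries that stood apart 35 rose. P2ry12, the ADP receptor of resting microglia (ENSMUSG00000036353, chr3:59216272-59262871), measured 1001 to 2792 CPM (median 1443) on day 1 and 1773 to 3584 CPM (median 2935) on day 4. The days overlapped through day 1 replicates 5 and 8, the fold change was 0.86 ± 0.17 (SE, adjusted p = 0.000109), and day 4 was still below ATV:DNP02 by 0.64 on the log2 scale (adjusted p = 0.0328). With P2ry13 and Tmem204 it was 1 of 3 list members called below ATV:DNP02 on day 4, and 37 had been on day 1, where 0.223% and 15% of all genes were. On day 4, 10 list members were below ATV:DNP02 without the 3 libraries. Crybb1, a crystallin found in microglia, measured 29 to 85.9 CPM (median 52.5) on day 1 and 96 to 197 CPM (median 129) on day 4 without overlap, 1.44 ± 0.21 (SE, adjusted p = 9.13e-07). Maf and Sall1, transcription factors of microglial identity, rose by 1.45 ± 0.22 (SE, adjusted p = 1.02e-06) and 1.07 ± 0.19 (SE, adjusted p = 2.37e-05). Cx3cr1, the fractalkine receptor, measured 899 to 2005 CPM (median 998) on day 1 and 1019.7 to 1754 CPM (median 1123) on day 4 (0.12 ± 0.14 (SE, adjusted p = 0.55)), and Tmem119, a marker of microglia, 466 to 2864 CPM (median 699) on day 1 and 499.9 to 1958 CPM (median 619) on day 4 (-0.12 ± 0.29 (SE, adjusted p = 0.792)), so neither was called with all batches. Within batch 1 Tmem119 had a fold change of 0.71 (adjusted p = 0.0135), while over the 27 alternatives that kept every batch its adjusted p ran from 0.0574 to 0.945. Csf1r, the receptor of CSF1, measured 766 to 3151 CPM (median 974) on day 1 and 1351 to 2689 CPM (median 1468) on day 4 with a fold change of 0.49 ± 0.20 (SE, adjusted p = 0.0644). Its highest day 1 value was replicate 5, without which it was called (adjusted p = 0.00233, the lowest of 27 alternatives, which reached 0.289).

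Genes of TREM2 signalling also rose more often than they fell, 11 against 1 of 35 tested (median 0.48), where 13.8% and 18.1% of all genes rose and fell. On day 4, 0 members were above ATV:DNP02 and 0 below (median 0.08). On day 1, 1 had been above and 12 below (median -0.35). Mouse Trem2 measured 1215 to 1756 CPM (median 1321) on day 1 and 1182 to 2514 CPM (median 2112) on day 4, overlapping, with a fold change of 0.52 ± 0.15 (SE, adjusted p = 0.00672), while its adaptor Tyrobp was at -0.03 ± 0.13 (SE, adjusted p = 0.9). Syk, the kinase that DAP12 recruits, measured 7.43 to 31.2 CPM (median 12.9) on day 1 and 20.1 to 95.4 CPM (median 38.6) on day 4 and rose by 1.38 ± 0.31 (SE, adjusted p = 0.000428). Inpp5d (SHIP1), the phosphatase that opposes PI3K, measured 140.2 to 471 CPM (median 205) on day 1 and 243 to 818 CPM (median 529) on day 4 and rose by 1.17 ± 0.20 (SE, adjusted p = 1.24e-05), and Lat2, a linker of immune receptors, measured 258 to 409 CPM (median 359) on day 1 and 121 to 246 CPM (median 194) on day 4 without overlap and fell by 0.94 ± 0.16 (SE, adjusted p = 1.56e-05). Of 33 immediate early and dissociation-related genes 10 rose and 3 fell. Fos, an early response factor, had a fold change of 0.31 ± 0.19 (SE, adjusted p = 0.219). It was called without day 1 replicate 5, its highest day 1 library, and without all 3 that stood apart, at 0.46 (adjusted p = 0.0343), and its adjusted p ran from 0.018 to 0.573 over the 27 alternatives. Aif1 (IBA1) had -0.19 ± 0.14 (SE, adjusted p = 0.326) and was also called without day 1 replicate 5 (adjusted p from 0.0282 to 0.687 over the 27 alternatives).

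Outside the lists, some regulatory genes rose without overlap of the libraries. Sema4g, a semaphorin, measured 0 to 2.09 CPM (median 0.977) on day 1 and 6.15 to 22.6 CPM (median 8.37) on day 4, 3.65 ± 0.64 (SE, adjusted p = 1.47e-05). Mxd4, which competes with MYC for its partner MAX, measured 1.87 to 17.2 CPM (median 8.03) on day 1 and 30.3 to 81.9 CPM (median 42.9) on day 4, 2.43 ± 0.29 (SE, adjusted p = 1.11e-08). Crebrf, which promotes degradation of the stress factor CREB3, measured 1.65 to 15.6 CPM (median 7.29) on day 1 and 30.7 to 109 CPM (median 41.8) on day 4, 2.72 ± 0.37 (SE, adjusted p = 1.85e-07). The ATV:DNP02 medians were 11.4 CPM, 35.4 CPM and 40.6 CPM, within the day 4 ranges.

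**Figure D4:**
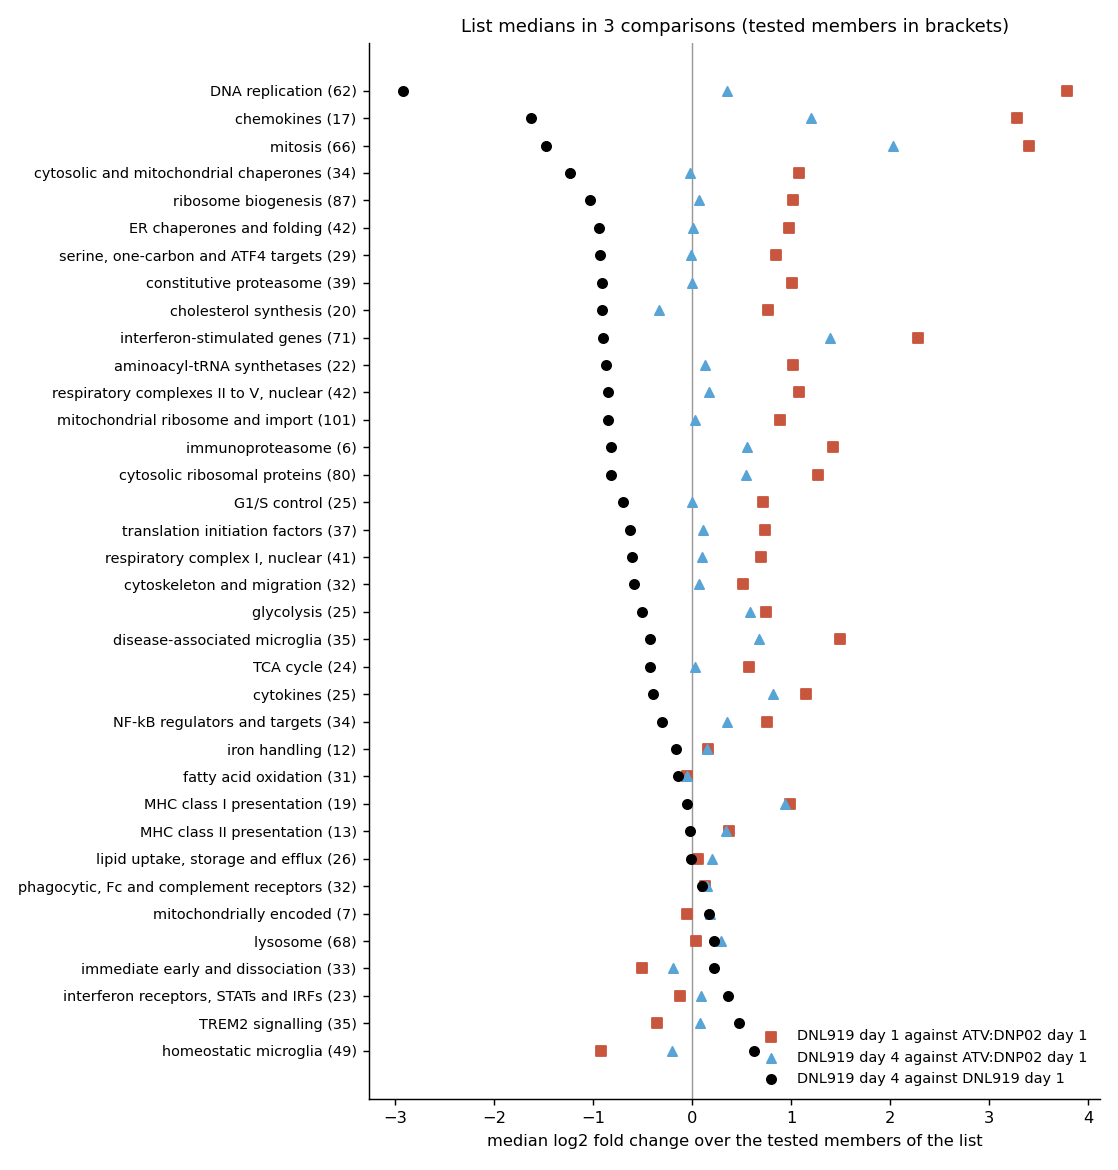
Median log2 fold change over the tested members of 36 gene lists (number tested in brackets) in 3 comparisons that share libraries. Black circles are DNL919 day 4 against day 1, blue triangles DNL919 day 4 against ATV:DNP02 day 1, and red squares DNL919 day 1 against ATV:DNP02 day 1. For chaperones, ribosome biogenesis and the proteasome the triangles lie near 0, while those of mitosis, interferon-stimulated genes, chemokines and MHC class I presentation lie at 0.94 or above.

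Over all genes, 177 were above ATV:DNP02 on day 4 and 25 below (1.81% together), while on day 1 2329 had been above and 1678 below (35.8%). Of the 177, 81 were also lower on day 4 than on day 1 (0.724% of all genes) and 19 also higher (0.17%). Of the 25, 8 were lower than on day 1 (0.0715%) and 3 higher (0.0268%). Against Vehicle, 104 genes were above on day 4 and 17 below (1.08% together). The count against ATV:DNP02 depended on single libraries. It was 202 in all, 100 without day 4 replicate 8, 280 without day 4 replicate 6 and 380 without the 3 libraries that stood apart. The controls had their dose 1 day before collection, so that in this pair the agent and the time since an injection cannot be told apart.

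Females alone (batches 1 and 2) gave 3129 called genes and males alone (batches 3 and 4) 468. The spread between libraries of a batch was wider in males, with a median SD of 0.526 (log2 CPM) on day 1 and 0.488 on day 4 against 0.26 and 0.354 in females. A sex difference in the change was called for 0 genes by limma-voom (521 at an unadjusted p under 0.05), 0 by edgeR (361) and 10 by DESeq2 (437). Within single batches of 2 against 2 libraries, the median of DNA replication ran from -2.93 to -2.63, that of chemokines from -2.42 to -0.64, and that of homeostatic genes from 0.34 to 0.92.

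**Figure D5:**
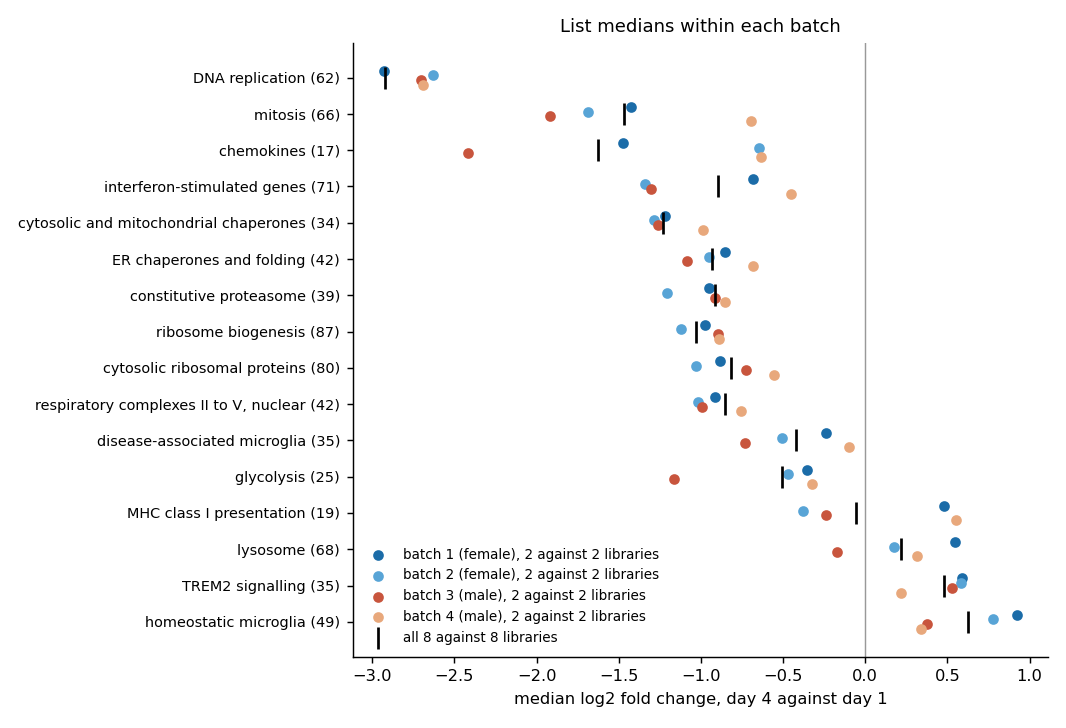
Median log2 fold change of day 4 against day 1 for 16 gene lists (tested members in brackets) within each takedown batch of 2 against 2 libraries (circles, females blue and males red or orange) and over all 8 against 8 libraries (bars). The medians of the proliferation, protein synthesis, folding and respiration lists are below 0 in all 4 batches and those of TREM2 signalling and homeostatic genes above 0, while MHC class I presentation and lysosome lie on both sides.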

How the data were processed

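Mouse microglia (CD11b+ sorted cells) were profiled by 3′-end RNA sequencing (SMART-Seq v4 3′ DE). According to the submitters' processing notes, STAR, featureCounts (Subread 1.6.2), edgeR and build GRCm38.p6 were used. The deposited count table holds reads per gene for 53801 genes, made by the authors, and values of 100 or more carry at most 2 significant digits (91.3% of all counts), which limits the precision of single values. The authors also deposited library sizes and a normalisation factor per library (a ratio made with edgeR), used in 1 alternative only, and CPM values that were not used. How multimapping reads and strand were counted is not given in the sources used here. All columns were mapped to samples by their names.

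Counts were analysed in R 4.3.3 with limma 3.58.1 (voom) after TMM scaling in edgeR 4.0.16. Genes passed filterByExpr by group (minimum count 10, minimum total 15, proportion 0.7), and 11189 of 25246 genes with any count were tested. The model had group and batch, over all 38 libraries of 5 groups (1650141 to 6418858 counts each), so that all groups share 1 estimate of the spread. p-values were adjusted by Benjamini-Hochberg over all genes tested. Library measures were compared by exact permutation of the days over the 16 libraries, without regard to batch or sex. Libraries are taken as 1 animal each, which the labels do not state, and p-values measure only the spread between them. The members and gene lists were chosen with earlier results of these data known. Genes were named by a rule that took a fixed set of marker genes, up to 2 called members with the largest change in each direction per list (a mean of at least 10 CPM on either day), and the 10 highest and 10 lowest changes over all genes whose days did not overlap. Not all of these are printed, 1 gene that the rule takes is not reported here, and genes outside the rule are said to be chosen after their values were seen, as were those named to complete a small count (Tk1, Hells, Stmn1, Pbk, B2m, H2-D1, Erap1, P2ry13 and Tmem204). The tests were checked on simulated data, where limma-voom called 43 of 100 genes with a log2 fold change of 1 and 88 of 100 with 2. Recovery was 44 and 93 with edgeR and 52 and 95 with DESeq2. A gene that was not called is thus not shown to be unchanged. Alternatives were edgeR's quasi-likelihood test, DESeq2 1.42.0, other scalings, no low-count filter, the 16 libraries alone, no batch term, the noncoding share as a covariate, thinning, single sexes and batches, and leaving out each of the 16 libraries or 3 together. Promoters are RefSeq sequences matched by symbol.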

Additional observations from a re-analysis of the deposited data

Results flagged for a closer look

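A single library lay far from the other 7 of its group in 51 of 204 tests, made for each printed gene and a few library measures on each of the 2 days. The value in brackets is the gap between that library and its nearest neighbour as a share of the range of the group (log2 CPM), and a share above 0.526 is Dixon's limit for 8 samples. Chance gives about 1 in 20 groups such a gap, and the tests are not independent, because many fall on the same library.

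Day 1 replicate 8 (batch 4) held 18 of them. It was lowest for Ch25h (0.83), Tspo (0.698), Rsad2 (0.694), Msr1 (0.688), Gpr84 (0.684), Ccl7 (0.682), Ifit3 (0.678), Hspa5 (0.653), H2-M3 (0.649), Ccl2 (0.618), Lgals3bp (0.615), Cd40 (0.599), Creld2 (0.589), Il1rn (0.579), Cenpa (0.562) and Cxcl10 (0.559), and highest for Inpp5d (0.595) and Sall1 (0.587). Its Ch25h measured 15.2 CPM against 358 to 682 CPM in the others and its Cxcl10 544 CPM against 2005 to 5608 CPM. Day 1 replicate 5 (batch 3) held 8. It was lowest for Rel (0.636), Aif1 (0.554), Pcna (0.541), Rplp0 (0.535) and mt-Nd1 (0.53), and highest for Cx3cr1 (0.646), Csf1r (0.602) and Fos (0.528).

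Day 4 replicate 6 (batch 3) held 13 and was lowest in each, for Ifit3 (0.796), Isg15 (0.706), Irf7 (0.683), Lpl (0.675), mt-Nd1 (0.66), H2-M3 (0.656), Ldhb (0.653), Axl (0.646), Ctsl (0.646), Psmb8 (0.609), Trem2 (0.552), Eif5a (0.551) and Fcgr3 (0.538). Its Ifit3 measured 0 CPM against 81.2 to 369 CPM in the others. In the remaining day 4 libraries, replicate 4 was lowest for Mthfd2 (0.658) and Cdkn1b (0.539) and highest for Npm1 (0.607), replicate 5 was lowest for Top2a (0.788), Slc40a1 (0.654) and Cdk1 (0.552), and replicate 8 was lowest for Ccnd1 (0.663) and Tfrc (0.55). Replicate 2 was highest for Uhrf1 (0.799) and Cdc6 (0.788), replicate 1 was lowest for Msr1 (0.605), and replicate 7 was lowest for Cd40 (0.64). For Cdc6 and Uhrf1 the other 7 libraries had no count at all.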

How the results depend on the processing

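The count of genes called between the days stayed within 1.5 times of 3569 with edgeR (2942), DESeq2 (3312), RLE scaling (3550), library totals (3534), the factors deposited by the authors (3556), the 16 libraries alone (3725), no batch term (3242), the noncoding share in the model (2483) and thinning (2980). It was 3129 (1417 higher, 1712 lower) in females alone and 468 (203 higher, 265 lower) in males alone. Single batches gave 1520 (604 higher, 916 lower) in batch 1, 1467 (545 higher, 922 lower) in batch 2, 6 (1 higher, 5 lower) in batch 3 and 0 (0 higher, 0 lower) in batch 4. In batches 3 and 4, 1295 and 1283 genes had an unadjusted p under 0.05. Without the low-count filter 4827 (2699 higher, 2128 lower) were called, 8 of them without a count in the 16 libraries, and 10678 between day 1 and ATV:DNP02. With 1 of the 16 libraries left out at a time, the count ran from 3142 to 3641 (higher from 1263 to 1586, lower from 1847 to 2138), that of day 4 against ATV:DNP02 from 100 to 280 and that of day 1 against ATV:DNP02 from 3630 to 4105. Without the 3 libraries that stood apart, day 4 against ATV:DNP02 gave 380. The difference between sexes gave 10 genes with DESeq2 and 9 without the low-count filter. Of genes called with all libraries or within the batch, the opposite sign was seen for Apoe (-0.80) and H2-M3 (-0.013) in batch 3 and Tmem119 (0.71) in batch 1, and sign changes of genes called in neither fit are not counted here. Fits of single sexes and batches held fewer libraries than the main fit, in equal numbers for each sex and for each batch. The causes were not tested. Of the 98 genes whose values are printed, 1 lost their call with edgeR, 4 with DESeq2, 6 without the low-count filter and 4 when the noncoding share was in the model. Within single sexes, 0 lost it in females and 36 in males. Within single batches, 9 lost it in batch 1, 9 in batch 2, 75 in batch 3 and 82 in batch 4. The noncoding share moved the medians of 12 of 48 lists by more than their SD over batches. No paired analysis was possible because the labels give no replicate numbers and each library is taken as a separate animal. On that reading no animal is in both days. The replicate numbers used here follow the order of the samples, and takedown batch was a term in the main model. Day 4 libraries had fewer counts than day 1 libraries, and genes near 0 on day 4 have fold changes that depend on the prior count.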
